A study of Saccharomyces cerevisiae with 6 samples.

Results

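In budding yeast given 3 mM caffeine, cells with a doubly substituted TOR1 and cells with unaltered TOR1 were compared gene by gene. The quantity described is the log2 caffeine ratio on the mutant array minus that on the WT array, after each array was centred on its median gene. It could be formed for 5423 of the 5561 named genes, and the other 138 lacked a value on at least 1 of both arrays. Every cell in the study was W303a laboratory yeast in which the chromosomal TOR1 had been deleted, and carried a plasmid-borne TOR1 fused to the 3HA epitope tag. The mutant plasmid was p3HA-TOR1 [I1954V + W2176R] and the WT plasmid p3HA-TOR1. Each genotype had arrays at 3, 6 and 9 mM caffeine, and on each array the labels put polyA RNA of untreated cells of that genotype in Cy3 and polyA RNA of caffeine-treated cells in Cy5. The series title sets the effect of caffeine on WT against that on the mutant. With 1 array a side at 3 mM, the differences at that dose are descriptions without a test or error of their own. Neither the promoter and copy number of the plasmid nor the length of treatment is given in the sources used here.

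TOR complex 1 is a protein kinase complex that couples growth to nutrients, above all to nitrogen. While it is active, cells transcribe the genes that build ribosomes and keep the genes for poor nitrogen sources silent. When it is inhibited, ribosome genes are shut down, the GATA factors Gln3 and Gat1 switch on nitrogen genes, and Rtg1 and Rtg3 switch on genes that feed glutamate synthesis. Caffeine, a methylxanthine, inhibits this complex. Residue I1954 lies in the part of TOR1 that binds the drug rapamycin with its partner protein, and W2176 in the kinase domain.

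The deposited values were log2 ratios. Which channel was divided by which is not given in the sources used here, and the ratio was taken as Cy5 over Cy3, that is caffeine over none, which is likely but not settled. In the opposite case every sign below would turn. The deposited gene medians were -0.22 on the mutant array and -0.30 on the WT array at 3 mM, so centring moved both by a similar amount. The lowest deposited ratio was 0.19 on the mutant array and 0.06 on the WT array. The number of arrays limited the precision. Signal over background was not examined. As a ratio holds no level, neither mating type nor the TOR1 allele could be checked from expression levels. Any dye bias common to both arrays cancels gene by gene in the difference. In these bulk cultures a smaller number of cells of a kind and less RNA per cell cannot be told apart.

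The mutant array was the narrower of the pair. Centred log2 ratios ran from -2.18 to 3.75 in the mutant and from -3.75 to 4.43 in WT, and their SD over genes was 0.66 in the mutant and 0.79 in WT. In the mutant 234 genes (4.31%) lay at least 2-fold above the array median and 466 (8.59%) at least 2-fold below it. In WT the counts were 510 (9.4%) above and 472 (8.7%) below. The difference, mutant minus WT, had a median of -0.04 and an SD of 0.83 over genes. It was at least 2-fold, a log2 difference of 1 or more, for 467 genes higher in the mutant (8.61%) and 652 lower (12%), which is 20.6% in all. At 4-fold or more, 36 genes were higher in the mutant and 75 lower, and at 8-fold or more 3 were higher and 13 lower. The excess of lower genes at 2-fold depended on the centring: 578 genes were higher and 568 lower when the deposited values were left uncentred.

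**Figure D1:**
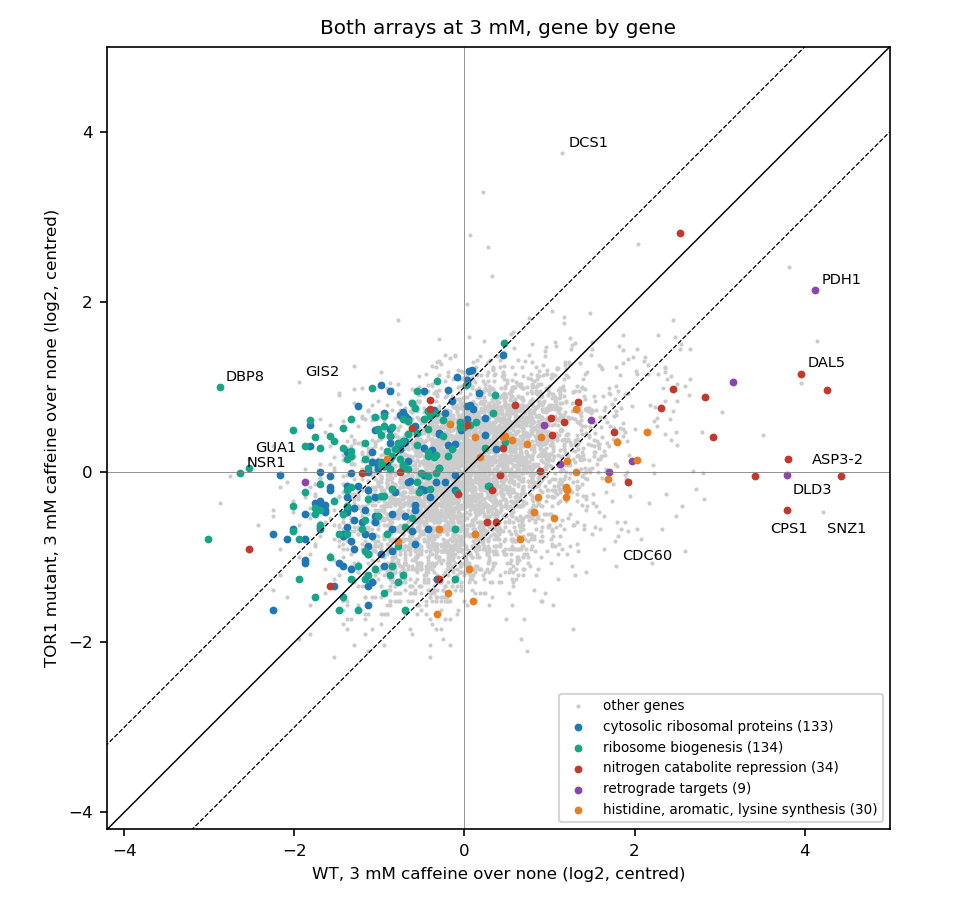
Each point is a gene, with its centred log2 ratio of caffeine over none at 3 mM on the WT array (horizontal axis) and on the mutant array (vertical axis). The solid line marks equal values and the dashed lines a 2-fold difference. Of the nitrogen genes 17 of 34 are at least 2-fold up in WT and 3 are 2-fold down, while 2 are 2-fold up in the mutant. Of the retrograde genes 7 of 9 are 2-fold up in WT and 1 is down, while 2 are up in the mutant. Ribosome genes lie mostly above the solid line.

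The largest class of 2-fold differences lay where WT departed from its median and the mutant stayed near its own. Of the 467 genes higher in the mutant, 208 (44.5%) were at least 2-fold below the median in WT and within 2-fold in the mutant. Another 71 (15.2%) were at least 2-fold above it in the mutant and within 2-fold in WT, and 184 (39.4%) passed 2-fold on neither array. Of the 652 genes lower in the mutant, 244 (37.4%) were 2-fold above the median in WT and within 2-fold in the mutant, 187 (28.7%) were 2-fold below it in the mutant and within 2-fold in WT, and 194 (29.8%) passed on neither. Another 18 were 2-fold above the median on both arrays, less so in the mutant. Part of the pattern thus lay in genes that were low in the mutant alone.

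Genes past 2-fold in opposite directions on the arrays were few. DBP8, GIS2 and XRS2 were high in the mutant and low in WT. The reverse held for AAD14, CDC60, HPA2, KTD1, SAP1, SNO4, SSE2, TRE1 and YNR068C. These 12 genes were listed because of their values. A single gene, DCS1, which encodes an enzyme that clears the caps left by mRNA decay, was 2-fold higher in the mutant while past 2-fold upwards on both arrays.

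Genes chosen on 1 array were nearer the median on the other. The 510 genes at least 2-fold up in WT had a median log2 ratio of 0.41 in the mutant against 1.34 in WT, and 15.5% of them were 2-fold up in the mutant as well. The 472 genes 2-fold down in WT had a median of -0.45 in the mutant against -1.30 in WT. Choosing on the mutant array gave the same picture from the other side. Its 234 highest genes had a median of 1.17 in the mutant and 0.63 in WT, and its 466 lowest genes -1.22 in the mutant and -0.43 in WT. Because such a choice favours extreme values on the choosing array, these medians are descriptions only.

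A choice made on other arrays uses no value of the 3 mM arrays, but an untreated control shared between doses would carry part of this bias over. The 479 genes at least 2-fold up on the WT arrays of both 6 and 9 mM had a median of 0.39 in the mutant and 1.12 in WT at 3 mM, and the 445 genes 2-fold down there had -0.30 in the mutant and -1.02 in WT. The 275 genes 2-fold up on the mutant arrays of 6 and 9 mM had 0.69 in the mutant and 1.04 in WT at 3 mM, so even these stood higher in WT. The 466 genes 2-fold down on those mutant arrays were the exception, with a median of -0.90 in the mutant and -0.52 in WT. Whether the untreated RNA of a genotype was 1 pool for its 3 arrays is not stated, so the doses may share their control.

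The genes with the largest differences are described first. Among genes with a value on all 6 arrays, the lowest in the mutant relative to WT was SNZ1, which encodes an enzyme of vitamin B6 synthesis made as cells stop growing. Its log2 ratio was -0.47 in the mutant and 4.22 in WT, a 25.8-fold difference. The 4 near-identical ASP3 genes for the cell-wall asparaginase, a nitrogen-repressed enzyme, were all among the lowest 20. In the mutant ASP3-1 stood at 0.16, ASP3-2 and ASP3-3 at -0.05 and ASP3-4 at 0.97. In WT they stood at 3.80, 4.43, 3.42 and 4.27, in the same order of genes. Transcripts of any copy could bind the spots of all, which may amount to 1 measurement. CPS1, the vacuolar carboxypeptidase S, stood at -0.45 in the mutant and 3.79 in WT, and DLD3, a lactate dehydrogenase of the retrograde response, at -0.03 in the mutant and 3.79 in WT. All of these were strongly up in WT and, apart from ASP3-4, near the median in the mutant.

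The other genes of the lowest 20 belonged to several kinds of metabolism. FRE4, a ferric reductase, stood at -0.93 in the mutant and 2.60 in WT. YAT2, a carnitine acetyltransferase, stood at -0.32 in the mutant and 2.82 in WT. TMT1, the trans-aconitate methyltransferase, stood at 0.43 in the mutant and 3.51 in WT. These again were high in WT alone by value. PHM8, a nucleotidase, had -0.52 in the mutant and 2.49 in WT, and YER079W, a gene without a common name here, had -0.40 in the mutant and 2.56 in WT. ARO5 had -0.20 in the mutant and 2.72 in WT, and YNR068C had -1.07 in the mutant and 2.21 in WT. In YNR068C and 3 others the mutant itself lay past 2-fold below its median. TRE1, which resembles transferrin receptors, stood at -1.84 in the mutant and 1.28 in WT, HAT2, a histone acetyltransferase subunit, at -2.10 in the mutant and 0.74 in WT, and CDC60, the cytosolic leucyl-tRNA synthetase, at -1.10 in the mutant and 1.78 in WT.

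At the other end, ribosome assembly and purine genes were frequent. DBP8, an RNA helicase of small ribosomal subunit assembly, had the largest difference, with a log2 ratio of 1.0 in the mutant and -2.88 in WT, 14.7-fold apart. NSR1, the yeast nucleolin, stood at -0.02 in the mutant and -2.64 in WT. DBP2, another RNA helicase, stood at 0.05 in the mutant and -2.53 in WT. UTP8, a nucleolar protein of early ribosome assembly, was at 0.61 in the mutant and -1.82 in WT. These genes were low in WT and near or above the median in the mutant. GUA1, the GMP synthase, stood at 0.16 in the mutant and -2.53 in WT, and APT1, the adenine phosphoribosyltransferase, at 0.30 in the mutant and -2.25 in WT. IMD4, an IMP dehydrogenase, stood at 0.63 in the mutant and -1.70 in WT. GIS2, a protein that binds mRNA, had 1.06 in the mutant and -1.95 in WT, and TRI1 had -0.05 in the mutant and -2.75 in WT.

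A few of the 20 highest differences came from the mutant array. NDL1, a partner of the dynein motor pathway, stood at 2.79 in the mutant and 0.07 in WT. DCS1 stood at 3.75 in the mutant, the highest value on that array, and 1.15 in WT. LCB3, a phosphatase of long-chain base phosphates, stood at 1.79 in the mutant and -0.79 in WT, and YMR316C-A at 2.65 in the mutant and 0.27 in WT. Of these 4 genes only DCS1 was also 2-fold up in WT. MPH3, a maltose permease gene left out of the naming because an array lacked a value, was of the same kind, with 3.30 in the mutant and 0.21 in WT. It is named because of these values.

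**Figure D2:**
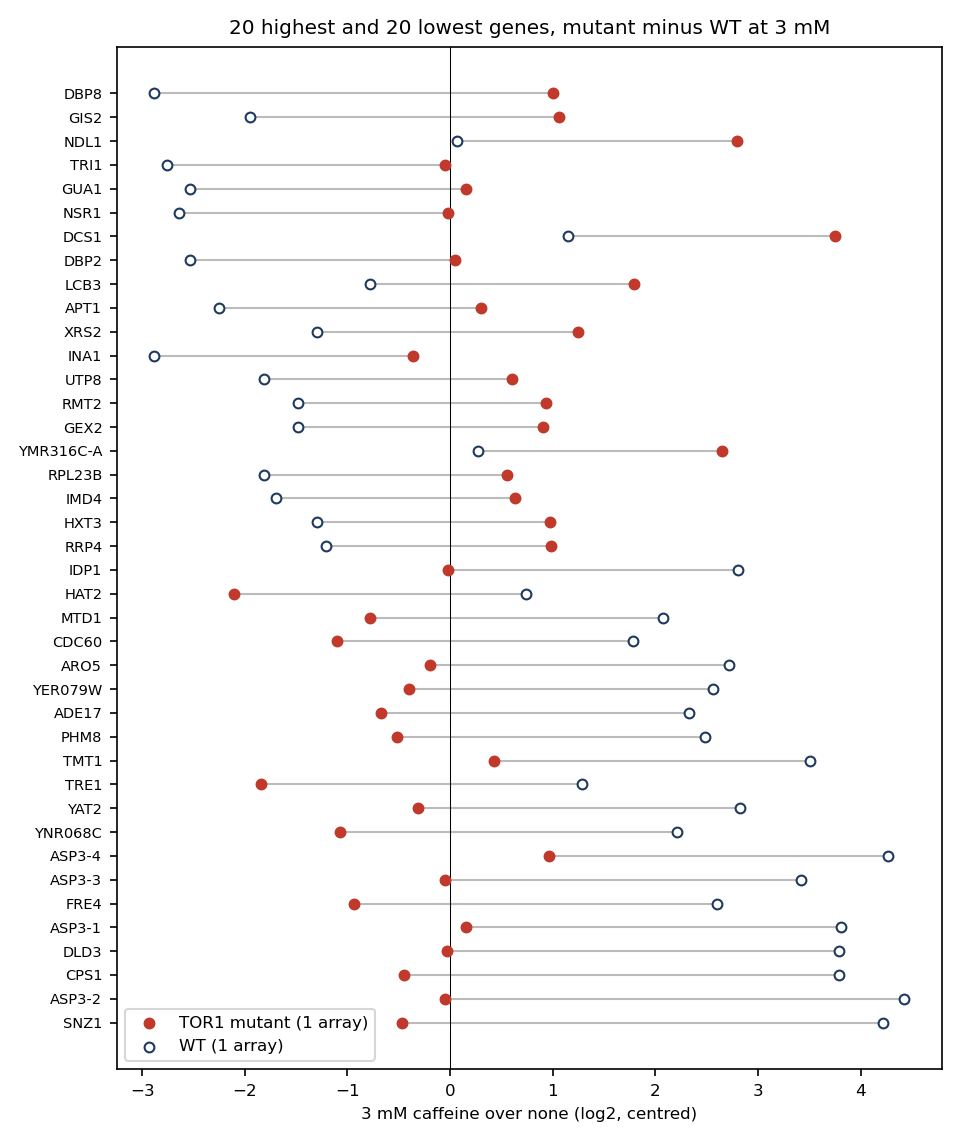
The 20 genes with the highest and the 20 with the lowest difference, mutant minus WT, each with its centred log2 ratio of caffeine over none at 3 mM in the mutant (filled red, 1 array) and in WT (open blue, 1 array). In the upper rows most WT points lie left of 0. In the lower rows most WT points lie beyond 2 on the log2 axis while most mutant points lie near or below 0.

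Genes that serve the use of poor nitrogen sources, the targets of nitrogen catabolite repression, were lower in the mutant by median, but not as a block. Of 34 measured members, 12 (35.3%) were at least 2-fold lower in the mutant and 5 (14.7%) were 2-fold higher, against 12% and 8.61% of all genes. The 12 include ASP3-1, ASP3-2 and ASP3-3, which may amount to 1 measurement. The list median was 0.35 in the mutant and 0.95 in WT, and the median difference was -0.59, against -0.04 over all genes. DAL5, the allantoate permease, stood at 1.16 in the mutant and 3.96 in WT, and DAL7, the malate synthase of allantoin breakdown, at 0.88 in the mutant and 2.83 in WT. APE1, a vacuolar aminopeptidase, stood at 0.41 in the mutant and 2.93 in WT, and OPT2, an oligopeptide transporter, at 0.75 in the mutant and 2.31 in WT. UGA2, which oxidises succinate semialdehyde from GABA, stood at -0.12 in the mutant and 1.92 in WT, and UGA1, the GABA transaminase, at 0.97 in the mutant and 2.46 in WT.

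The 5 members higher in the mutant were transporters and a regulator that were low or flat in WT. GAP1, the general amino acid permease, stood at -0.02 in the mutant and -1.21 in WT. MEP1, an ammonium permease, stood at -0.90 in the mutant and -2.53 in WT, and MEP3, another, at 0.74 in the mutant and -0.41 in WT. DUR3, the urea permease, stood at 0.85 in the mutant and -0.41 in WT. The fifth, GAT1, encodes an activator of this pathway, with 0.52 in the mutant and -0.61 in WT. These 5 are named because they went against the list. Within allantoin and urea breakdown, DAL1 (allantoinase), DAL2 (allantoicase) and DAL4 (allantoin permease) lay within 2-fold between genotypes at this dose, with differences of -0.18, -0.38 and -0.52. DIP5, the permease for dicarboxylic amino acids, was up alike on both arrays, with 2.81 in the mutant and 2.53 in WT.

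Some enzymes among the retrograde targets, such as ACO1 and IDH2, act early in the tricarboxylic acid cycle and so supply 2-oxoglutarate. The list also holds enzymes of other routes, such as DLD3 and PDH1. Of 9 listed genes, 6 were at least 2-fold lower in the mutant and 1 was higher, against 12% and 8.61% of all genes. The median log2 ratio was 0.13 in the mutant and 1.70 in WT, and the median difference was -1.70. CIT2, the peroxisomal citrate synthase, stood at 1.06 in the mutant and 3.16 in WT, and PDH1, of the methylcitrate route, at 2.14 in the mutant and 4.12 in WT. ACO1, aconitase, stood at 0.13 in the mutant and 1.97 in WT, and IDH2, an isocitrate dehydrogenase subunit, at 0.00 in the mutant and 1.70 in WT. ATO3, a plasma membrane ammonium exporter, went the other way, with -0.12 in the mutant and -1.88 in WT. The list median was -0.89 when both arrays were given the same distribution by quantile normalization. No other list median moved by more than 0.595, the prior SD of a single gene in the limma fit below.

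Enzymes of glutamate, glutamine and GABA stood in the same direction. None of 10 was 2-fold higher in the mutant and 5 were lower, against 8.61% and 12% of all genes. The list median was 0.11 in the mutant and 1.26 in WT. IDP1, the mitochondrial isocitrate dehydrogenase that uses NADP, stood at -0.02 in the mutant and 2.81 in WT. GLN1, the glutamine synthetase, stood at 0.47 in the mutant and 1.76 in WT. GDH1, the main glutamate dehydrogenase for assimilation, was within 2-fold, at -0.12 in the mutant and -0.70 in WT. BAT2, the cytosolic branched-chain aminotransferase, listed with amino acid breakdown, stood at 1.54 in the mutant and 4.15 in WT. ARO9, the aromatic aminotransferase II that starts breakdown of aromatic amino acids, was opposite, at 0.97 in the mutant and -0.61 in WT. Of 6 genes of the aryl alcohol dehydrogenase family 3 were 2-fold lower in the mutant, against 12% of all genes. AAD14 was the furthest apart of the 6, at -1.57 in the mutant and 1.04 in WT. Spots for these similar genes could also bind each other's transcripts.

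Amino acid synthesis differed between pathways. Among 21 genes of histidine and aromatic amino acid synthesis, counted with their activator GCN4, 11 were 2-fold lower in the mutant and 1 was higher. Among all genes 12% were lower and 8.61% higher. The list median was 0.00 in the mutant and 0.74 in WT, and the median difference was -1.16. HIS5 stood at 0.14 in the mutant and 2.04 in WT, HIS4 at -1.52 in the mutant and 0.10 in WT, and TRP3 at 0.36 in the mutant and 1.79 in WT. GCN4, the master activator of amino acid synthesis, which is regulated mainly in translation, stood at -0.78 in the mutant and 0.65 in WT. The exception, HIS6, stood at 0.16 in the mutant and -0.91 in WT. The list thus combined genes up in WT with genes down in the mutant.

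All 9 lysine genes lay below 0 in the difference, 6 of them by at least 2-fold, against 12% of all genes. The list had a median of -0.09 in the mutant and 0.48 in WT and a median difference of -1.24. LYS20, a homocitrate synthase at the start of the pathway, stood at 0.47 in the mutant and 2.15 in WT, and LYS1, the saccharopine dehydrogenase of its end, at -0.09 in the mutant and 1.68 in WT. LYS4, homoaconitase, stood at -1.67 in the mutant and -0.32 in WT, so here the mutant was the one that departed from its median. Against 12% of all genes, 3 of 8 arginine genes were 2-fold lower in the mutant. They were ARG1 (0.62 in the mutant, 2.42 in WT), ARG4 (1.45 in the mutant, 2.65 in WT) and ARG7 (-0.09 in the mutant, 1.44 in WT). For leucine, isoleucine and valine none of 11 genes was 2-fold apart, against 20.6% of all genes. The largest differences there were -0.99 for ILV1, threonine deaminase, and 0.98 for LEU9, an isopropylmalate synthase.

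Sulfate uptake and methionine synthesis stood slightly higher in the mutant. Of 29 genes, 7 were 2-fold higher and 2 lower, against 8.61% and 12% of all genes, and the list median was 0.34 in the mutant and 0.18 in WT. MUP1, the high-affinity methionine permease, stood at 0.27 in the mutant and -1.34 in WT, and MET2, homoserine acetyltransferase, at 1.38 in the mutant and -0.23 in WT. HOM3, the aspartate kinase that starts the threonine and methionine routes, went against the list at 0.08 in the mutant and 2.21 in WT. In the mutant 7 of the 29 were 2-fold above the array median, and 4 were in WT.

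Vitamin and one-carbon genes held some of the largest single differences. Of 18 vitamin B6 and thiamine genes, 4 were 2-fold lower in the mutant and 1 was higher, against 12% and 8.61% of all genes. Beside SNZ1, its neighbour and partner SNO1 stood at 1.05 in the mutant and 3.96 in WT, and the related SNZ2 at -1.18 in the mutant and 0.57 in WT. Of 16 glycine and one-carbon genes 6 were 2-fold lower in the mutant, against 12% of all genes. MTD1, a methylenetetrahydrofolate dehydrogenase, stood at -0.78 in the mutant and 2.08 in WT. GCV2, a subunit of glycine decarboxylase, stood at 0.44 in the mutant and 2.36 in WT, and GCV1, another subunit, at -0.93 in the mutant and 0.97 in WT. MIS1, the mitochondrial C1-tetrahydrofolate synthase, was higher in the mutant, at 0.33 against -1.05 in WT.

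Purine genes were taken as 2 lists. In the de novo pathway 1 of 14 genes was 2-fold lower in the mutant and 2 were higher, against 12% and 8.61% of all genes, which is near the background. ADE17, which makes IMP, stood at -0.67 in the mutant and 2.33 in WT, while its isozyme gene ADE16 was within 2-fold at 0.20 in the mutant and 0.44 in WT. In the list of IMP dehydrogenases and nucleobase salvage 7 of 13 were 2-fold higher in the mutant and none was lower. Its median was 0.16 in the mutant and -1.21 in WT. AAH1, adenine deaminase, stood at -0.52 in the mutant and -2.25 in WT, IMD3 at 0.07 in the mutant and -1.05 in WT, and HPT1, hypoxanthine-guanine phosphoribosyltransferase, at -0.30 in the mutant and -1.48 in WT. FUR1, which salvages uracil and is not a purine gene, was low alike on both, at -1.97 in the mutant and -1.95 in WT.

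Genes of ribosome production were down in WT and near the median in the mutant. Of 133 cytosolic ribosomal protein genes, 59 were at least 2-fold higher in the mutant and none was lower. Among all genes the shares were 8.61% and 12%. The difference lay above 0 for 121 of the 133. In the mutant 12 of the 133 were 2-fold below the array median and 7 above it. In WT 62 were 2-fold below and none above. For the large subunit 32 of 77 were 2-fold higher in the mutant, with medians of -0.10 in the mutant and -0.95 in WT. For the small subunit 27 of 56 were higher, with medians of -0.15 in the mutant and -0.88 in WT. The medians of both subunits were close to each other.

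RPL23B stood at 0.55 in the mutant and -1.82 in WT, and RPL30 at -0.03 in the mutant and -2.17 in WT. RPS8A stood at 1.02 in the mutant and -0.98 in WT, and RPS18A at 0.96 in the mutant and -0.88 in WT. The last pair stood about as far above the median in the mutant as below it in WT. Many ribosomal proteins are encoded by near-identical gene pairs, whose transcripts can bind each other's spots. In 55 such pairs measured here, both copies were 2-fold higher in the mutant in 10 pairs, 1 copy in 27 and neither in 18. Both copies lay above 0 in 46 pairs, and the median gap between copies was 0.60 on the log2 scale.

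Ribosome biogenesis genes, which process and assemble ribosomal RNA in the nucleolus, showed a difference of similar size. Of 134 measured, 65 were 2-fold higher in the mutant and 1 was lower, against 8.61% and 12% of all genes. The list median was 0.08 in the mutant and -0.93 in WT. In the mutant 18 of the 134 were 2-fold below the median of the array, and 58 in WT. Among subunits of RNA polymerases I and III, which transcribe ribosomal and transfer RNA, 5 of 24 were higher in the mutant and none was lower. RPA12, of polymerase I, stood at 0.81 in the mutant and -1.30 in WT, and RPC11, of polymerase III, at 0.30 in the mutant and -1.58 in WT. The largest polymerase I subunit, RPA190, was within 2-fold at 0.14 in the mutant and -0.61 in WT.

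Translation factors were mixed. Of 38, 13 were 2-fold higher in the mutant and 4 lower, against 8.61% and 12% of all genes. The list median was 0.03 in the mutant and -0.68 in WT. ANB1, an isoform of the elongation factor eIF5A, stood at 0.60 in the mutant and -1.43 in WT, and YEF3, elongation factor 3, at 1.56 in the mutant and -0.30 in WT. SUP35, a release factor, stood at 0.73 in the mutant and -1.13 in WT. Among those lower in the mutant, CAM1, a subunit of elongation factor 1B, stood at -1.10 in the mutant and 0.77 in WT. Of 20 cytosolic aminoacyl-tRNA synthetases 1 was 2-fold higher and 2 were lower, a smaller share than that of all genes, and their median was -0.04 on each array. Among 65 mitochondrial ribosomal proteins 10 were higher and 2 lower, with medians of -0.14 in the mutant and -0.34 in WT, so the cytosolic and mitochondrial ribosome lists differed in their medians.

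**Figure D3:**
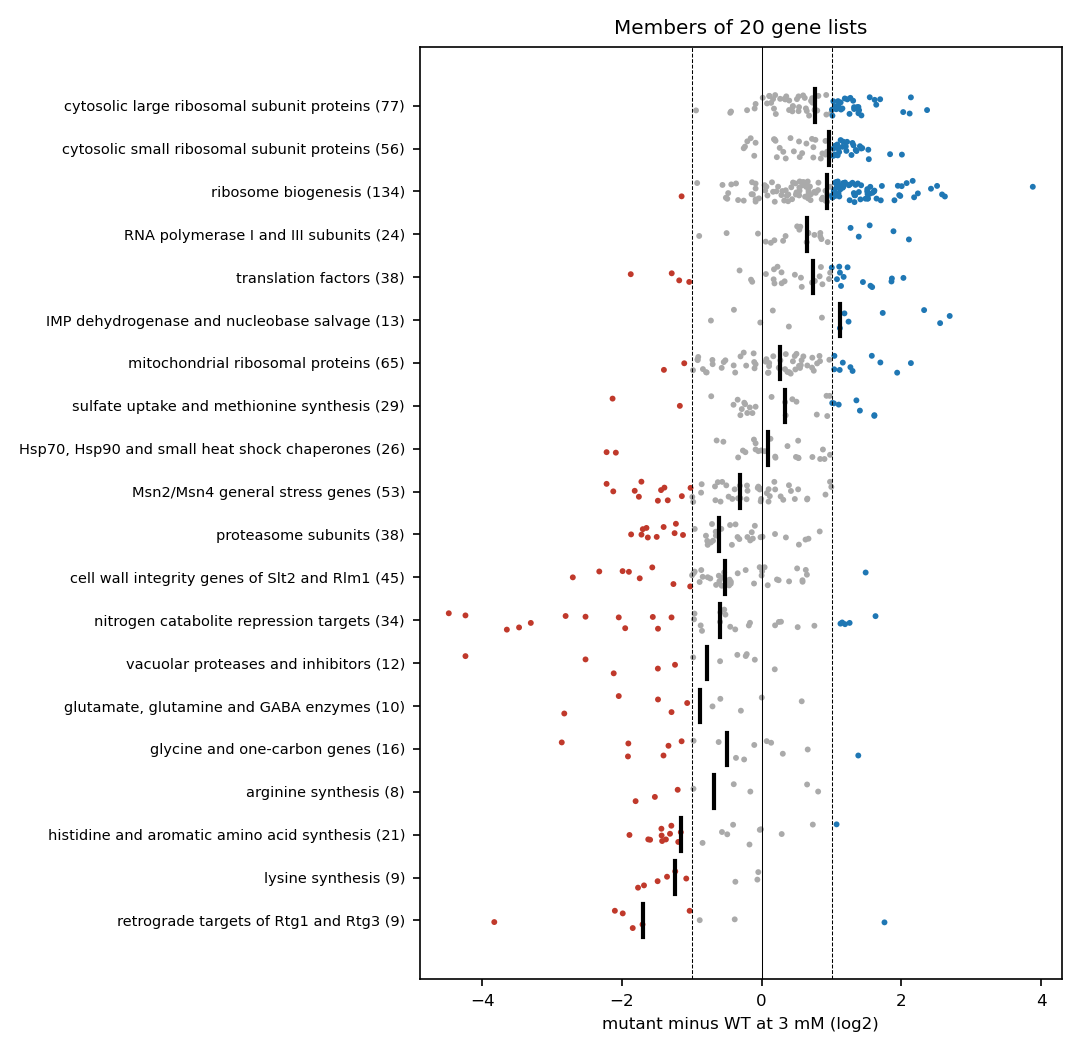
Difference, mutant minus WT at 3 mM, in log2 units for each measured member of 20 gene lists, with the number of members in brackets. Blue points are at least 2-fold higher in the mutant, red points at least 2-fold lower, and black bars are list medians. Ribosome lists lie right of 0, while retrograde, lysine, histidine and aromatic lists lie left of it.

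The proteasome, which degrades tagged proteins, stood lower in the mutant at this dose. None of 38 genes was 2-fold higher and 10 were lower, against 8.61% and 12% of all genes. The list median was -0.39 in the mutant and 0.34 in WT. PUP2, a core subunit, stood at -0.84 in the mutant and 1.03 in WT. RPN3, a subunit of the regulatory lid, stood at -0.81 in the mutant and 0.89 in WT. RPN4, the transcription factor that activates proteasome genes, stood at -1.03 in the mutant and 0.61 in WT. By contrast PRE1, a core subunit, was above 2-fold on both arrays, at 1.44 in the mutant and 1.25 in WT. The list median of the difference was -0.77 at 6 mM and 0.22 at 9 mM.

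Vacuolar proteases and their inhibitors included 5 of 12 genes that were 2-fold lower in the mutant and none higher. PRC1, carboxypeptidase Y, stood at -0.87 in the mutant and 1.25 in WT, and TFS1, an inhibitor of it, at -0.16 in the mutant and 1.33 in WT. PEP4, the proteinase A that activates the others, stood at -0.57 in the mutant and 0.67 in WT. Among 36 autophagy genes 4 were lower and 1 was higher, against 12% and 8.61% of all genes, so the share of lower genes was near the background. ATG8, the ubiquitin-like protein of the autophagosome, stood at -1.0 in the mutant and 0.63 in WT.

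Cell wall integrity genes, targets of the kinase Slt2, were lower in the mutant by median. Of 45 genes 8 (17.8%) were 2-fold lower in the mutant and 1 (2.2%) was higher, against 12% and 8.61% of all genes. The list medians were 0.25 in the mutant and 0.67 in WT. The median difference was -0.52 at 3 mM, -0.43 at 6 mM and -0.05 at 9 mM, and 0 of 44 genes were called by limma at 6 and 9 mM. PST1, a wall protein, stood at 0.70 in the mutant and 3.03 in WT. PIR3, a structural wall protein, stood at -0.67 in the mutant and 2.03 in WT, and SLT2 itself at 0.71 in the mutant and 2.46 in WT. PRM5, another Slt2-dependent gene, did not share the pattern, at 2.69 in the mutant and 2.04 in WT. BCK1, a kinase above Slt2, was the 1 gene 2-fold higher, at 0.73 in the mutant and -0.75 in WT. The list's MLP1 is a nuclear pore protein and not a wall gene.

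General stress genes of Msn2 and Msn4 were less apart as a list. Of 53 genes 11 were 2-fold lower in the mutant and none was higher, against 12% and 8.61% of all genes. The medians were 0.22 in the mutant and 0.33 in WT. GLC3, the glycogen branching enzyme, stood at -1.57 in the mutant and 0.55 in WT, and PNC1, nicotinamidase, at -1.07 in the mutant and 0.75 in WT. ALD3, an aldehyde dehydrogenase, stood at 0.54 in the mutant and 2.26 in WT. Among 26 chaperones HSP42 and SSE2 were the only ones 2-fold apart, both lower in the mutant. HSP42, a small heat shock protein, stood at -1.73 in the mutant and 0.49 in WT, and SSE2, an Hsp70 exchange factor, at -1.07 in the mutant and 1.02 in WT. MSN4 itself stood at -1.07 in the mutant and 0.33 in WT.

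Among nutrient uptake genes the counts were small. Of 23 hexose transport and kinase genes 3 were higher in the mutant and 1 was lower, against 8.61% and 12% of all genes. HXT3, a low-affinity glucose transporter, stood at 0.97 in the mutant and -1.30 in WT, and HXT1, another, at 0.37 in the mutant and -0.85 in WT. Of 16 amino acid permeases of rich medium 3 were higher and 2 lower. GNP1, a glutamine permease, stood at -0.90 in the mutant and -2.17 in WT, and AGP3 at 0.20 in the mutant and 1.65 in WT. ALD6, a cytosolic aldehyde dehydrogenase that yields acetate, stood at -0.45 in the mutant and -2.25 in WT.

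The TOR pathway's own genes were near the background in number. Of 43, 3 were 2-fold higher in the mutant and 6 were lower, against 8.61% and 12% of all genes. TOR1, read from the plasmid in both strains, stood at 0.36 in the mutant and -0.25 in WT, within 2-fold. TOR2, its paralogue in the genome, stood at -1.14 in the mutant and -0.13 in WT, a difference of -1.01 just past 2-fold. GLN3, the nitrogen activator held back by TOR complex 1, stood at -0.97 in the mutant and 0.70 in WT, and TCO89, a subunit of the complex, at -0.97 in the mutant and 0.47 in WT. MEH1, which anchors the complex's activators at the vacuole, stood at 0.83 in the mutant and -0.53 in WT. IFH1, a co-activator of ribosomal protein genes, stood at 0.58 in the mutant and -0.70 in WT. KOG1 and LST8, core subunits of the complex, were within 2-fold, with differences of 0.09 and 0.20.

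Genes that mark mating types were examined because the strain is of type a. Of 7 a-specific genes 2 were 2-fold lower in the mutant, against 12% of all genes. The list medians were 0.03 in the mutant and 0.00 in WT. BAR1, the alpha-factor protease, stood at -0.36 in the mutant and 1.51 in WT, and STE2, the alpha-factor receptor, at 0.47 in the mutant and 0.05 in WT. Of 5 alpha-specific genes, which an a cell should keep silent, 2 were 2-fold lower in the mutant, against 12% of all genes. Signal over background was not examined for them, and lists this short allow no reading of the counts. STE3, the a-factor receptor, stood at -0.50 in the mutant and 0.94 in WT, and AFB1, the a-factor barrier, at 0.19 in the mutant and 1.52 in WT. The median of these 5 was 0.19 in the mutant and 0.94 in WT. Their part in the other results was not tested.

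The 48 lists covered 1242 measured genes and were written with earlier results of these data known. They held 208 of the 467 genes higher in the mutant and 161 of the 652 lower ones. Most genes lower in the mutant, 491, therefore lay outside them, as did 259 of those higher.

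The same genotype difference at 6 and 9 mM, which the 3 mM arrays did not enter, was tested with limma across 5212 genes on the 3 dose-matched differences, with the spread between the 6 and 9 mM differences as error (1 residual and 9.36 prior degrees of freedom). At a Benjamini-Hochberg adjusted p below 0.05, 140 genes (2.69%) were called higher in the mutant and 170 (3.26%) lower. Without centring, on the deposited values, the counts were 0 higher and 13 lower, and after quantile normalization of all 6 arrays 0 higher and 9 lower. As 2 dose-matched differences carry the test, and the cultures and untreated RNA may be shared, the p-values measure the spread between these arrays only.

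Called lower at 6 and 9 mM were 18 of 32 nitrogen catabolite repression targets, with none higher, against 3.26% and 2.69% of all genes. The 18 include ASP3-1, ASP3-2 and ASP3-3, which may amount to 1 measurement. The median difference of that list was -0.59 at 3 mM, -1.51 at 6 mM and -2.13 at 9 mM. The gap was smallest at the lowest dose, where the WT median was 0.95. DAL4 stood at 0.82, 0.49 and 0.99 in the mutant and 1.34, 3.62 and 4.53 in WT at 3, 6 and 9 mM. Its difference at the higher doses was -3.33 ± 0.41 (SE, limma adjusted p = 0.00349). For DAL5 the difference there was -4.52 ± 0.40 (limma adjusted p = 0.00143).

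For the retrograde list the order of doses was the reverse, with a median difference of -1.70 at 3 mM, -0.93 at 6 mM and -0.66 at 9 mM. At the higher doses 2 of 9 genes were called lower, against 3.26% of all genes. ACO1 stood at 0.13, -0.18 and 0.61 in the mutant and 1.97, 0.98 and 0.06 in WT at 3, 6 and 9 mM, so its WT values neared the mutant's with dose. DLD3 had -0.03, 0.38 and 0.14 in the mutant and 3.79, 2.75 and 2.13 in WT, and was called lower with -2.18 ± 0.40 (limma adjusted p = 0.0185). Histidine and aromatic genes had median differences of -1.16, -0.58 and -0.14 at the rising doses, with 2 of 21 called lower. Lysine genes had -1.24, -1.12 and -0.73, with none of 9 called by limma.

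Ribosome lists had a median difference above 0 at each dose. For ribosomal proteins it was 0.87 at 3 mM, 0.85 at 6 mM and 1.19 at 9 mM, with 19 of 131 called higher at 6 and 9 mM and none lower. For ribosome biogenesis it was 0.94, 1.04 and 1.16, with 29 of 129 called higher and none lower. DBP8 was called higher with a difference of 2.26 ± 0.40 (limma adjusted p = 0.0176), and IMD4, the highest of the IMP dehydrogenase list, with 4.01 ± 0.50 (limma adjusted p = 0.00349). Of that list 3 of 11 were called higher. On the deposited values and after quantile normalization no gene was called higher, so none of these calls held there.

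**Figure D4:**
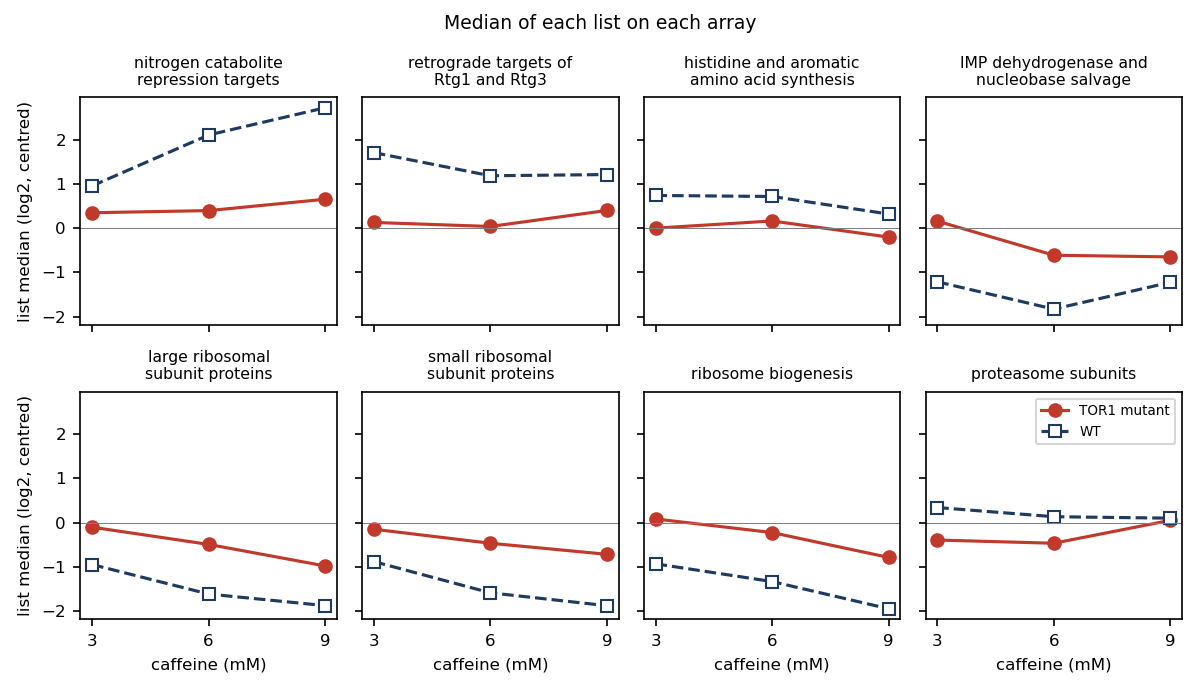
Median centred log2 ratio of caffeine over none for 8 gene lists on each array, against the caffeine dose in mM, with the mutant as filled red circles and WT as open blue squares (1 array per point). The gap for nitrogen catabolite repression targets is -0.59 at 3 mM and -2.13 at 9 mM in median difference, while for retrograde targets it is -1.70 at 3 mM and -0.66 at 9 mM.

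The difference at 3 mM was also set against that at 6 and 9 mM in the same fit, where the lone pair of 3 mM arrays is assumed to vary like the others. No gene was called by limma in either direction (0 of 5212, 0% each way). An unadjusted limma p below 0.05 was found for 208 of the 5212 genes. That is a smaller share than the 0.05 such a cut-off passes when nothing differs. The fit had little power for this, and the count says nothing about how stable the 3 mM values are. In data of the same size simulated from its own spread, the fit called 12% of true log2 changes of 2 and 50% of changes of 3. Some named genes with a large difference at 3 mM had one of the opposite sign at 9 mM. GIS2 stood at 1.06, -1.79 and -1.94 in the mutant and -1.95, -1.38 and -0.94 in WT at 3, 6 and 9 mM, so its differences were 3.01, -0.41 and -0.99. LCB3 stood at 1.79, -1.55 and -1.02 in the mutant and -0.79, -0.58 and -0.98 in WT, with differences of 2.58, -0.96 and -0.04. APT1 had 0.30, -1.72 and -2.41 in the mutant and -2.25, -2.58 and -0.49 in WT, so its differences were 2.55, 0.86 and -1.92. The differences of GUA1 were 2.69, 1.47 and -1.72, past 2-fold in the same direction at 6 mM, and those of TRI1 were 2.70, 0.89 and -2.10.

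Among genes called at 6 and 9 mM, 9 were called under the chosen processing and 5 alternatives. These were the deposited values, quantile normalization, the ratio minimum, robust eBayes and the fit without dose as a block. Fits with an array left out were not among them. The genes were ASP3-1, ASP3-3, ASP3-4, DAL5, DAL7, OPT2, RRN5, SRS2 and VBA1, and the ASP3 copies may amount to 1 measurement. All were lower in the mutant, which was fixed beforehand because 2 of the alternatives called no gene higher. At 3 mM all 9 were lower too, with differences from -3.65 for ASP3-1 to -1.32 for VBA1, a vacuolar transporter of basic amino acids. SRS2, a DNA helicase that restrains recombination, stood at -0.67, -1.39 and -2.30 in the mutant and 1.60, 2.38 and 1.65 in WT at 3, 6 and 9 mM. RRN5, a subunit of the factor that recruits polymerase I to ribosomal DNA, stood at -0.52, -1.12 and -1.02 in the mutant and 1.64, 2.72 and 1.92 in WT. RRN5 therefore lay opposite to most genes of ribosome production. Over their alternatives the limma adjusted p-values of these 9 ranged from 0.000443 to 0.0384.

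Repeat spots gave the only measure of error within the 3 mM arrays. For 32 genes more than 1 spot was measured on both arrays. The pooled SD between spots of a gene in the difference was 0.75 (33 degrees of freedom), close to the SD of 0.83 over all genes. In 13 of the 32 genes the spots had opposite signs, and in 8 they differed by at least 1 on the log2 scale. A difference of 2-fold in a single gene with 1 spot is thus within the range that spots of 1 gene showed. Only PWP2, a ribosome biogenesis protein, with spots from 1.14 to 1.72, and PGS1, which makes phosphatidylglycerol phosphate, with spots of -2.80 and -1.34, were 2-fold apart by every spot. Whether spots of 1 gene bind the same stretch of it is not given in the sources used here.

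**Figure D5:**
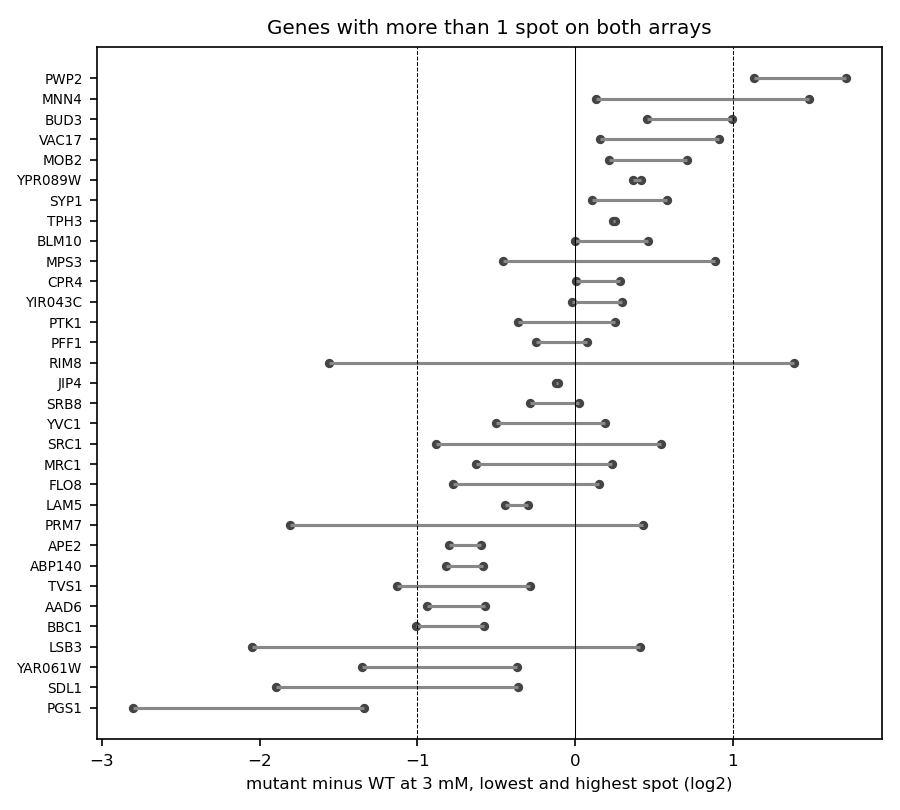
Lowest and highest spot of each of the 32 genes with more than 1 spot on both 3 mM arrays, as the difference mutant minus WT in log2 units, ordered by the mean of the spots, with dashed lines at 2-fold. The spots of RIM8, PRM7 and LSB3 lie on both sides of 0 and more than 2 log2 units apart.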

How the data were processed

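Per the labels, polyA RNA of untreated (Cy3) and caffeine-treated (Cy5) cells was hybridised to 6 two-colour arrays, 1 per genotype and dose, with no dye swap. The authors deposited log2 ratios: 2 to the power of each value had 2 decimals in 100% of cases. Background correction, spot filters and normalization are not given in the sources used here. Of 6214 probes, 5596 had 1 gene symbol in the platform annotation, 0 several and 618 none, and all 5596 matched assembly R64 by Entrez identifier. Spots of a gene were averaged (34 genes) and each array was centred on its median gene. No coordinates or sequences are given.

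At 3 mM, genes at least 2-fold apart were counted. The 6 and 9 mM differences were tested with limma 3.58.1 in R 4.3.3 (lmFit, eBayes, 2-sided) on genes with all 6 values. Data simulated from this fit recovered 12% of log2 changes of 1, 84% of 2 and 100% of 3 for that contrast. There were 12 false calls among 5012 unaltered genes. Errors were drawn independently from the fit's own spread, with equal changes at 6 and 9 mM. These figures thus describe the model and not the rate of false calls in the real data. Labels do not name separate cultures, so p-values may measure technical spread. The error also holds any change of the genotype difference between 6 and 9 mM, as these doses stood in for replicates.

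The members and the 48 lists were chosen with earlier results of these data known. Named were, among 5211 genes with all 6 values and a ratio of at least 0.1 on both 3 mM arrays, the 20 highest and 20 lowest differences, up to 4 members per list with the largest absolute difference (ratio and missing-value rule included), up to 5 called genes each way of the dose contrast (none was called), and TOR1 and TOR2. Other genes were named after their values were seen, as exceptions, members within 2-fold or defining genes of a list. Alternatives covered centring, quantile and scale normalization, low ratios, missing values, repeat spots, the fold threshold, the fit and each array left out.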

Additional observations from a re-analysis of the deposited data

Results flagged for a closer look

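For 19 of the named genes all 3 mutant arrays lay on one side of the array median and all 3 WT arrays on the other. In the limma fit of mutant minus WT at 6 and 9 mM, ERG9, HIS2, MRPS35, RPA12 and RSB1 were called at an adjusted p below 0.05. The others of the 19 were not. As the genes were picked partly on those arrays, the calls are no separate support, and the difference at 3 mM was not tested. Over all 5212 genes, 177 had the mutant above and WT below at every dose and 120 the reverse.

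In 9 of the 19 the mutant was above the median and WT below it. The difference at 3 mM, mutant minus WT, was 2.27 for the glucose transporter gene HXT3, 2.11 for the polymerase I subunit gene RPA12, 1.86 for the release factor gene SUP35, 1.86 for the elongation factor gene YEF3, and 1.70 and 1.58 for the mitochondrial ribosomal protein genes MRPL4 and MRPS35. It was within 2-fold for 3 others, at 0.90 for the Hsp70 chaperone gene SSA2, 0.87 for the histone H2A gene HTA1 and 0.61 for TOR1 itself. YEF3 stood at 1.56, 0.69 and 0.02 in the mutant and -0.30, -0.76 and -1.41 in WT at 3, 6 and 9 mM.

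In the others WT was above and the mutant below. The difference at 3 mM was -2.86 for the one-carbon gene MTD1, -1.75 for the vitamin B6 gene SNZ2, -1.70 for the agglutinin anchor gene AGA1, -1.60 for the histidine gene HIS2 and -1.40 for the stress factor gene MSN4. It was -1.38 for the seripauperin gene PAU13, -1.34 for RSB1, -1.09 for VTC1, of the vacuolar polyphosphate transporter, and -1.07 for ERG9, the squalene synthase, and within 2-fold at -0.98 for the arginine gene ARG2. HIS2 stood at -0.54, -1.12 and -0.18 in the mutant and 1.05, 0.88 and 1.47 in WT.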

How the results depend on the processing

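At 3 mM, 467 genes were 2-fold higher in the mutant and 652 lower. With 1.5-fold in place of 2-fold the counts were 1084 and 1330, and with 3-fold 109 and 189. The split was 578 and 568 on the values as deposited and 548 and 576 after quantile normalization, where the median over all genes moved by 0.09 and 0.05. Of 336 list medians recomputed under 7 alternatives 335 moved by less than 0.595, limma's prior SD for a single gene. Many list medians are smaller than that, so the count does not show that they are stable. After quantile normalization the median of arginine synthesis moved from -0.69 to -0.27, that of glycolysis from -0.46 to -0.12, and the retrograde list was at -0.89. Signs changed for 6 medians near 0 (gluconeogenesis, pentose phosphate, and ergosterol and mating type a under 2 settings each). Of 828 values for named genes 22 moved by more than 0.595, all under quantile normalization, and LEU4 turned from -0.59 to 0.27 there. The 310 genes called by limma at 6 and 9 mM were 13 on the values as deposited, 9 after quantile normalization, 131 without dose as a block, and 47 to 137 when an array of 6 or 9 mM was left out (47 without the mutant 6 mM array, 48 without WT 6 mM, 53 without WT 9 mM and 137 without mutant 9 mM). The lone array was then assumed to vary like the others. For 3 mM against 6 and 9 mM the count was 0 under each alternative except 1 without the mutant 6 mM array. The cause of these changes was not tested. No paired analysis was possible because the labels carry no replicate numbers, beyond the match of arrays by dose that gave the 310 genes. Signal over background was not examined, and repeat spots differed by a pooled SD of 0.75.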

Other observations

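Several further gene groups were near the share of all genes or moved in a few members. Of 28 seripauperin genes, a family of near-identical wall proteins whose spots could bind each other's transcripts, 6 were 2-fold lower in the mutant at 3 mM and none was higher, against 12% and 8.61% of all genes. PAU6 stood at -1.97 in the mutant and 0.66 in WT, and PAU24 at -2.03 in the mutant and -0.41 in WT. Limma called both lower at 6 and 9 mM, with differences of -1.93 ± 0.41 (adjusted p = 0.0262) and -1.64 ± 0.40 (adjusted p = 0.0416). Of 20 multidrug resistance genes 5 were lower in the mutant and none higher. PDR1, their main activator, stood at -1.22 in the mutant and 0.42 in WT, and RTA1 at 0.03 in the mutant and 1.67 in WT.

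Of 26 iron genes 2 were lower in the mutant and 1 was higher, against 12% and 8.61% of all genes. HMX1, haem oxygenase, stood at -0.62 in the mutant and 1.0 in WT, while FET3, the multicopper oxidase of high-affinity iron uptake, stood at -0.50 in the mutant and -1.75 in WT. Of 25 ergosterol genes 5 were lower and 1 was higher, with ERG26 at -0.47 in the mutant and 0.78 in WT and ERG5 at 0.41 in the mutant and -0.79 in WT. Of 38 respiratory genes 5 were higher and 3 lower. RIP1, the Rieske iron-sulphur protein, stood at -1.73 in the mutant and -0.17 in WT and was called lower at 6 and 9 mM, with -2.16 ± 0.40 (limma adjusted p = 0.0185). COX4, a cytochrome c oxidase subunit, stood at 0.64 in the mutant and -0.82 in WT. Of 39 genes of the G1 to S transition 4 were higher and 3 lower, among them MCM7, of the replicative helicase, at 0.64 in the mutant and -1.21 in WT, and RNR1, of ribonucleotide reductase, at -1.18 in the mutant and 0.04 in WT.

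Probes without a gene name here were compared as well. Of 587 with a value on both 3 mM arrays, 48 (8.18%) were 2-fold higher in the mutant and 55 (9.37%) lower, with a median difference of 0.08.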
